A study of Mus musculus with 13 samples.

Results

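The mouse genes whose symbol is Zfp followed by a number encode zinc finger proteins, and 302 rows of the deposited expression table, covering 301 such genes, were expressed in mouse embryonic fibroblasts (MEFs). The rule uses the name and the level, and it was set with earlier results of these data known. Of 25965 rows, 341 carried such a symbol, 340 remained without Zfp42, and 302 of these reached 1 RPM (1 read per 1000000 reads of the library) in at least 3 of 12 hairpin libraries. The levels therefore chose the members and are given as a description. Zfp319 has 2 intervals in the table and counts as 2 members.

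MEFs were prepared from E13.5 embryos. By the study's methods, one X chromosome of the primary cells carried the XistΔA deletion and the other was a PGK chromosome, used there for its sequence variants. Both hairpin groups share these X chromosomes. Cells received a retroviral hairpin, were selected with puromycin from 24 h later and were harvested on day 7, and 2 groups also received 5-aza (5-azacytidine, an inhibitor of DNA methylation) for 24 h from day 3. Poly(A) RNA was sequenced as 100-base single-end reads in 13 libraries. The control hairpin group held 1 luciferase hairpin library (replicate 1) and 2 non-silencing hairpin libraries (replicates A and B), and the control hairpin + 5-aza group held the treated cultures of the same names. The Setdb1 hairpin group held 1 library of shSetdb1.6 (replicate 1) and 2 of shSetdb1.4 (replicates A and B), again with a matching Setdb1 hairpin + 5-aza group. By the study's methods, the Setdb1 hairpins went into cells heterozygous for a Setdb1 gene trap and the non-silencing hairpins into wild-type cells, while the genotype of the luciferase hairpin cells was not stated. The dams were of mixed 129 and C57 background, and the labels give no genotype or embryo for a library, so hairpin, gene-trap allele and embryo cannot be told apart. No source says that the libraries of a group came from separate embryos, and p-values then measure only the spread between these libraries. The remaining library, named PGK_5aza and from 5-aza-treated cells with no named hairpin, entered no comparison, and nothing is said of its alleles here.

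Most mouse zinc finger proteins of this naming carry an array of C2H2 fingers that reads DNA, and many also carry a KRAB domain. A KRAB domain binds Trim28 (KAP1), which brings in the histone methyltransferase Setdb1 and so places H3K9me3, a silencing mark, on the bound DNA, often a retrotransposon. KRAB zinc finger genes lie in tandem clusters that are themselves marked by H3K9me3 in many cell types. Other members have no KRAB domain and act as transcription factors, RNA-binding proteins or ubiquitin ligases.

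By the size of 1 read in the table, 1 RPM stood for 42 to 59 reads in the 12 hairpin libraries, which sets their depth. Setdb1 itself was at 46.35, 46.15 and 46.26 RPM in the control hairpin libraries and at 12.12, 15.36 and 14.7 RPM in the Setdb1 hairpin libraries (replicates 1, A and B, the order used for all triplets of values). That is a log2 difference of -1.73 ± 0.11 (SE), with a limma adjusted p of 1.52e-06, and with 5-aza the difference was -1.76 ± 0.11 (adjusted p = 1.25e-06). All 8 fibroblast marker genes examined were above 1 RPM, and some moved with the groups. With 5-aza in Setdb1 hairpin cells Col1a1 fell by 0.73 on the log2 scale (adjusted p = 0.0337) and Pdgfrb by 0.72 (0.0146), while Vim rose by 0.20 (0.0152). Thy1 fell by 0.46 with the Setdb1 hairpin in 5-aza-treated cells (adjusted p = 0.0277). The summed level of 4 epithelial markers ranged from 2.65 to 3.18 RPM in the control, 8.59 to 10.6 in the control + 5-aza, 9.62 to 10.5 in the Setdb1 and 20.7 to 23.5 in the Setdb1 + 5-aza libraries. Krt8 and Krt18 made up this sum, while Epcam and Cdh1 had at most 7 and 4 reads in any hairpin library. Of the other lists, Sox2, a neural marker with at most 128 reads, was at a mean of 0.18 RPM in the control and 0.20 in the control + 5-aza libraries. It was at 2.14 RPM in the Setdb1 and 1.385 in the Setdb1 + 5-aza libraries. Sox2 reached 1 RPM only in Setdb1 hairpin libraries, so these values are a description with no test. Des, a muscle marker, rose by 0.53 with the Setdb1 hairpin without 5-aza (0.00763), and with 5-aza by 0.93 with the control (0.000184) and 0.36 with the Setdb1 hairpin (0.0259). Elavl4, a neural marker with at most 79 reads, was at a mean of 1.4 RPM in the control and 0.891 in the control + 5-aza libraries. It was at 0.935 RPM in the Setdb1 and 0.847 in the Setdb1 + 5-aza libraries. Elavl4 passed the level threshold through the control libraries, so these values too are a description with no test. Csf1r, a macrophage marker, rose with 5-aza by 0.27 with the control and 0.29 with the Setdb1 hairpin (0.022 and 0.0121), and Cd68 by 0.52 with the Setdb1 hairpin (0.0281). The part of these differences in the results below was not tested. In bulk RNA, fewer cells of a type and less RNA per cell cannot be told apart.

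Members were mostly of modest level. Their mean over the 12 libraries ranged from 0.876 to 234.3 RPM with a median of 9.2 RPM, against 21.4 RPM over all 13134 genes tested. The threshold was seldom decisive, since 294 members were at 1 RPM or more in all 12 libraries and none reached it in libraries of 1 group only. Just inside it, the third-highest value was 1.01 RPM for Zfp69, 1.11 RPM for Zfp786 and 1.14 RPM for Zfp750, and just outside it 0.995 RPM for Zfp59, 0.956 RPM for Zfp641 and 0.947 RPM for Zfp455. Of the 38 rows left out, 9 had 0 reads in all 12 libraries. Per kilobase of exon, Zfp207, a spindle-assembly factor also called BuGZ, was at a mean of 27.9 RPM and Zfp106, an RNA-binding protein, at 22.5 RPM. Zfp91, a ubiquitin ligase, followed at 15.1 RPM per kilobase. The members together took 5284 to 5394 RPM in the control, 5211 to 5327 in the control + 5-aza, 5516 to 5542 in the Setdb1 and 5428 to 5466 in the Setdb1 + 5-aza libraries.

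By gene position, 77 members lay on chromosome 7, 38 on chromosome 17, 25 on chromosome 13 and 4 on the X chromosome. Chaining the 340 Zfp rows, members or not, whose neighbouring starts lay within 1 Mb gave 19 clusters with at least 4 members. These clusters held 4 to 20 members each and 152 in all, and 8 of them with 68 members were on chromosome 7. Clustered and scattered members differed in kind. A KRAB sequence pattern was found in 112 of 152 clustered and 44 of 150 scattered members. Of the 296 members with a translated protein, 156 had the pattern, with a median of 12 C2H2 fingers and a median level of 5.71 RPM. The 140 members without it had a median of 7 fingers and 19.2 RPM. Recent duplication limits how reads are assigned, and 33 members shared at least 20% of their 31-base words with other genes, while 37 overlapped the exons of another gene by at least 10%.

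The first comparison asks which of these genes changed when Setdb1 was depleted, without 5-aza. Of the 302 members, 28 rose and 4 fell (limma, Benjamini-Hochberg adjusted p under 0.05), which is 10.6% of members, against 12.4% of all genes tested. The share of members that rose stood beside 9.01% of all genes, and the share that fell beside 3.4%. The largest rises were of Zfp37, a testis- and brain-expressed zinc finger gene on chromosome 4, and of Zfp760 on chromosome 17. Most changes were small. The median member log2 difference was 0.061 (all genes: 0.031), its median absolute value was 0.091 in members and in all genes alike, and Zfp37 was the 1 member both called and at least 2-fold changed, a combination met by 1.13% of all genes. The 3 Setdb1 libraries did not overlap the 3 control libraries in 98 members (32.5%), against 34.4% of all genes. The split of 28 to 4 depended on scaling: it was 15 to 7 after centring libraries on their median, 16 to 7 after quantile normalization and 17 to 6 after correction for GC content. With 1 library left out, the count lay between 15 and 22, and it fell by more than 1.5 times without control hairpin replicate 1 (19), A (18) or B (21) or Setdb1 hairpin replicate 1 (15) or A (21). The share of all genes called is not given for these settings, so the counts describe the members alone. A set of 12 members kept the call under each of these settings: Zfp37, Zfp760, Zfp958, Zfp808, Zfp940, Zfp820, Zfp229, Zfp809 and Zfp110, which rose, and Zfp286, Zfp40 and Zfp36, which fell.

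**Figure D1:**
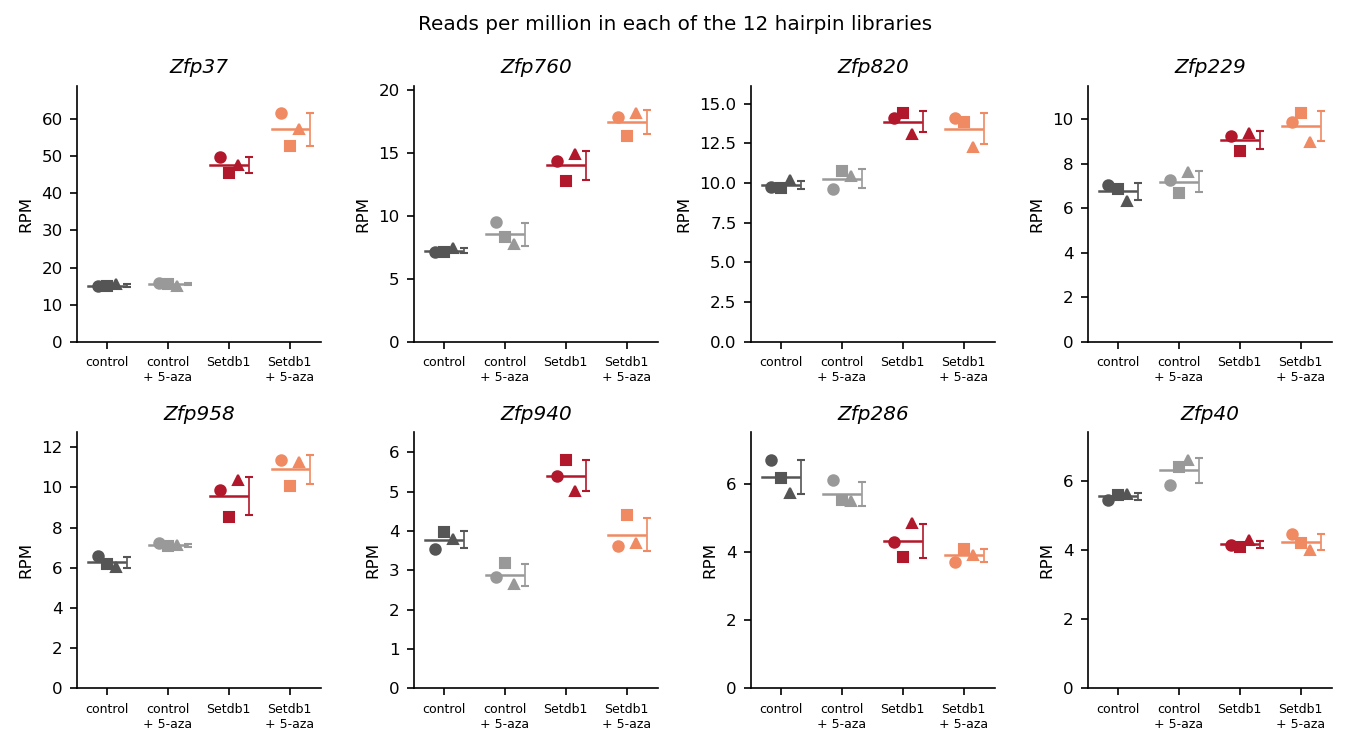
RPM in each of the 12 hairpin libraries for 8 members, with circles for replicate 1, squares for A and triangles for B, a line at the group mean and a bar of 1 SD (n = 3). Zfp37, Zfp760, Zfp820, Zfp229 and Zfp958 are higher in all Setdb1 hairpin libraries than in all control hairpin libraries, and Zfp286 and Zfp40 are lower.

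Zfp37 (ENSMUSG00000028389, chr4:62189540-62208446, minus strand) stood apart from the other members. Its protein held 12 C2H2 fingers and matched 8 of the 19 KRAB positions searched, below the minimum of 12 used here. It was at 14.98, 14.9 and 15.6 RPM in the control hairpin libraries and at 49.87, 45.52 and 47.72 RPM in the Setdb1 hairpin libraries. With 5-aza it was at 15.94, 15.63 and 15.15 RPM with the control hairpin and at 61.52, 52.77 and 57.42 RPM with the Setdb1 hairpin. Every Setdb1 hairpin library was above every control hairpin library, with or without 5-aza. The rise was 3.15-fold without 5-aza (log2 1.65 ± 0.06 SE, limma adjusted p = 2.63e-08) and 3.67-fold with it (1.88 ± 0.06, adjusted p = 5.99e-09). The library of shSetdb1.6 and both libraries of shSetdb1.4 were raised. Zfp37 was not in a cluster. Of the 9 other genes tested within 0.5 Mb, none was called without 5-aza, and with 5-aza Prpf4, a splicing factor gene, rose by 0.23 on the log2 scale.

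The next largest rise lay in the largest cluster, at 21.01 to 23.6 Mb of chromosome 17, which holds 20 members, 19 of them with the KRAB pattern. In it 6 members rose and 1 fell, or 35% of its members, against 12.4% of all genes tested (9.01% rose and 3.4% fell). The median log2 difference of its members was 0.088, against 0.031 over all genes. Within the cluster, 4 consecutive tested genes over 188 kb (21.66 to 21.85 Mb) all rose: 3110052M02Rik, which is not a Zfp gene by name, then Zfp760, Zfp229 and Zfp820. This block was chosen after its values were seen, so its borders follow the calls. Zfp760 (ENSMUSG00000067928, chr17:21707741-21725636, plus strand, 16 fingers) was at 7.141, 7.123 and 7.465 RPM in the control and 14.38, 12.73 and 14.92 RPM in the Setdb1 hairpin libraries, a 1.93-fold rise (0.95 ± 0.08, adjusted p = 2.03e-05). Zfp229 (ENSMUSG00000061544, chr17:21733724-21748968, plus strand, 16 fingers) was at 7.056, 6.858 and 6.343 RPM against 9.254, 8.585 and 9.365 RPM (0.43 ± 0.07, adjusted p = 0.00325). Zfp820 (ENSMUSG00000069743, chr17:21816876-21845759, minus strand, 12 fingers) was at 9.734, 9.721 and 10.18 RPM against 14.07, 14.39 and 13.12 RPM (0.49 ± 0.07, adjusted p = 0.000711). The groups did not overlap for any of these genes. 3110052M02Rik was low, at a mean of 1.39 ± 0.14 (SD, n = 3) against 2.52 ± 0.218 RPM (0.86 ± 0.11, adjusted p = 0.000402). The genes on either side were not called: Zfp948, 141 kb before the start of Zfp760, differed by 0.08 ± 0.05 (adjusted p = 0.371), and 2210404O09Rik, 172 kb after it, by 0.22 ± 0.08 (adjusted p = 0.0924).

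**Figure D2:**
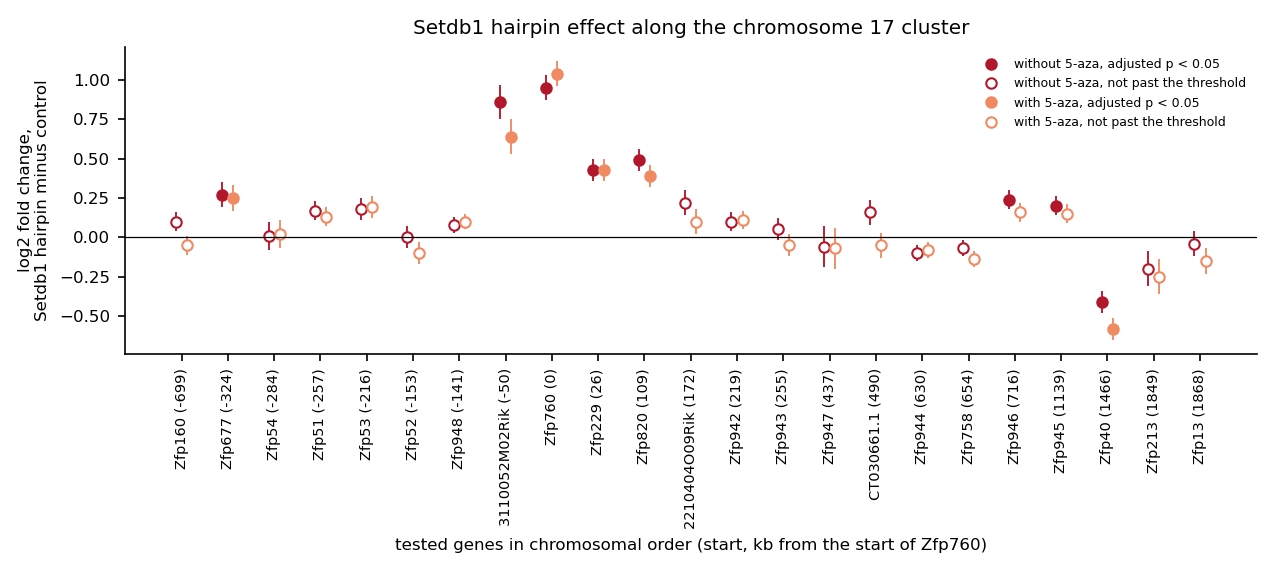
Log2 difference in RPM between Setdb1 hairpin and control hairpin libraries for the 23 tested genes of the chromosome 17 cluster, without and with 5-aza, in chromosomal order with each start's distance from that of Zfp760 in kb, filled points for adjusted p under 0.05 and bars of 1 SE (n = 3 libraries a group). The genes from 3110052M02Rik to Zfp820 sit above 0 side by side, while Zfp40 at 1466 kb sits below 0.

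The sequence just upstream of these 4 members is shown because DNA methylation, the target of 5-aza, falls on CpG dinucleotides. Each line gives the 250 bases before the RefSeq start (GRCm38.p6) with CG in capitals, read 5′ to 3′ on the gene's strand. Zfp37 (chr4:62208547-62208796, minus) holds 23 CpGs, as many as 13.3% of the 32851 windows of the table hold or exceed. Zfp760 (chr17:21707491-21707740, plus) holds 12, reached by 33.5% of windows, and Zfp229 (chr17:21733474-21733723, plus) and Zfp820 (chr17:21845760-21846009, minus) hold 7 each, reached by 46.3%.
Zfp37: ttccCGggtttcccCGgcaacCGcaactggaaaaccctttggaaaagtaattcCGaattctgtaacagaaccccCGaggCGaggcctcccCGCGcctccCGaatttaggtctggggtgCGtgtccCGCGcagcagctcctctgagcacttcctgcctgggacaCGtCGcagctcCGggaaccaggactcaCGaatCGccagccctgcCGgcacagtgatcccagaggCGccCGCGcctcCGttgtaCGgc
Zfp760: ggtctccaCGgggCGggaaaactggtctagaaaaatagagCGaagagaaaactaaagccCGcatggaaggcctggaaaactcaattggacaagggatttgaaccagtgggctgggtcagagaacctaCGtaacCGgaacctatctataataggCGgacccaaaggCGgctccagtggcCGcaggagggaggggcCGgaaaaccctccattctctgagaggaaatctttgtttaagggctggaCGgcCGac
Zfp229: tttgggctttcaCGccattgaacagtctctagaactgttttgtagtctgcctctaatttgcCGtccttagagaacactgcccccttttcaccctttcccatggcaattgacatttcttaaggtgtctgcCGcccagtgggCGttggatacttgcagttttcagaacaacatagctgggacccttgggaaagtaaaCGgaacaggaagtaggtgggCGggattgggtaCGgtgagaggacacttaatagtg
Zfp820: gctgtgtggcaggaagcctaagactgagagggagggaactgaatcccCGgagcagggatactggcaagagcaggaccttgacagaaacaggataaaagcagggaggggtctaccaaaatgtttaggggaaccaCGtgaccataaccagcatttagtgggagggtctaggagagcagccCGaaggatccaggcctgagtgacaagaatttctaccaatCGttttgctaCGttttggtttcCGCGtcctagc
Of all windows 92.1% hold a CG at least once, and the median was 6 CpGs over all windows and 11.5 over the 240 members with an entry. KRAB members had a median of 9 (n = 136) and members without the pattern 14 (n = 99). The 23 members that rose and have an entry had a median of 11, close to that of all members. The Zfp37 window ends 100 bases upstream of the gene's interval in the table, and methylation was not measured here.

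The other members of the chromosome 17 cluster did not follow one direction. Zfp40, a KRAB gene 1466 kb beyond the start of Zfp760, was at 5.441, 5.585 and 5.631 RPM in the control and 4.15, 4.082 and 4.283 RPM in the Setdb1 hairpin libraries. Its groups did not overlap, and it fell by 0.41 on the log2 scale (SE 0.07, limma adjusted p = 0.00243). Zfp677, Zfp946 and Zfp945 passed the test with 0.27, 0.24 and 0.20, but each of these calls was lost when single libraries were left out. Without control hairpin replicate 1 the adjusted p was 0.0514 for Zfp677, 0.0913 for Zfp946 and 0.165 for Zfp945. Zfp946 also lost the call without control hairpin replicate A (0.076) or Setdb1 hairpin replicate 1 (0.102). Zfp677 and Zfp945 lost it without any 1 of the 6 libraries, up to 0.131 without control hairpin replicate A for Zfp677 and 0.165 for Zfp945. The other 13 members of the cluster were not called, and their differences included 0.18 for Zfp53 and -0.20 for Zfp213.

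Outside this cluster, calls were spread thinly. Of the 19 clusters, 8 had no called member, 9 had 1 and 2 had more. The cluster at 19.64 Mb of chromosome 9 had 2 calls, Zfp560 (0.29, adjusted p = 0.0363) and Zfp266 (0.15, adjusted p = 0.0421). Zfp266 lost the call without any 1 of the 6 libraries, and Zfp560 kept it only without Setdb1 hairpin replicate A. Their highest adjusted p was 0.149 without control hairpin replicate A and 0.133 without Setdb1 hairpin replicate 1, respectively. The cluster of 12 members at 67.04 Mb of chromosome 13, 11 of them KRAB genes, had no call, nor had the clusters of 10 and 9 members at 127.2 and 6.131 Mb of chromosome 7. Clustered members were called in 18 of 152 cases and scattered members in 14 of 150, or 11.8% and 9.33%, against 12.4% of all genes. 

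**Figure D3:**
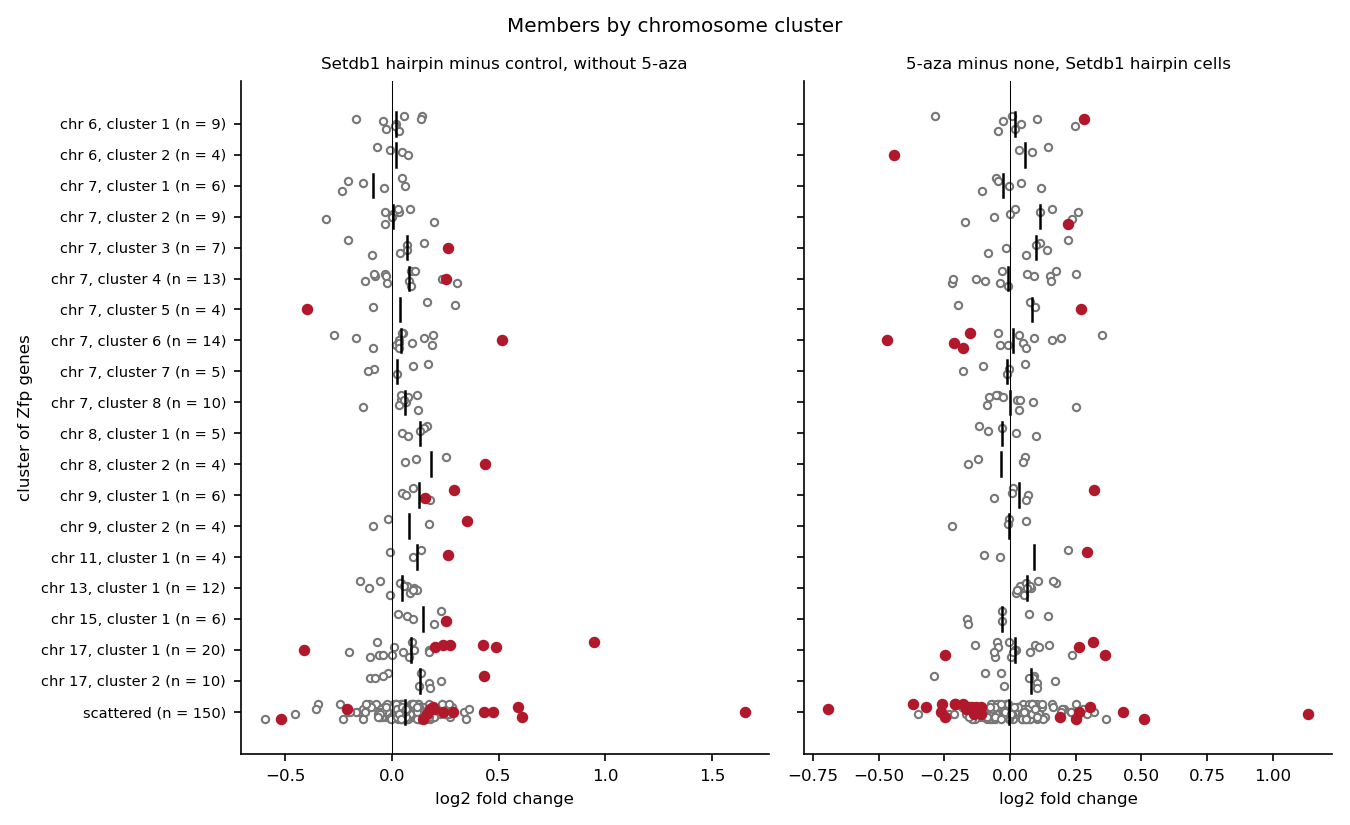
Log2 difference in RPM for each member, Setdb1 hairpin against control hairpin without 5-aza (left) and 5-aza against none in Setdb1 hairpin cells (right), by cluster, numbered along each chromosome, and for scattered members, with a line at the median and filled points for adjusted p under 0.05. On the left, filled points are few in each cluster, with 7 in the chromosome 17 cluster at 21.01 Mb and at most 2 in any other.

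Of the remaining members that kept their calls, most encode KRAB proteins. Zfp958, a gene on chromosome 8 outside the clusters, was at 6.567, 6.204 and 6.041 RPM in the control and 9.85, 8.543 and 10.38 RPM in the Setdb1 hairpin libraries (0.61 ± 0.08, adjusted p = 0.000395). Zfp808, on chromosome 13, was at 2.338, 2.262 and 2.201 RPM against 3.482, 3.725 and 3.076 RPM (0.59 ± 0.11, adjusted p = 0.00408). The groups were apart for both genes, but 43.2% of the 31-base words of Zfp808 occur in other genes, so its reads are less surely its own. Zfp940, in the cluster at 29.77 Mb of chromosome 7, was at 3.549, 3.977 and 3.797 RPM against 5.39, 5.808 and 5.014 RPM (0.52 ± 0.10, adjusted p = 0.00685). Zfp809, which binds the proline primer binding site of retroviral DNA and recruits Trim28 to silence it, was at 12.88, 12.99 and 12.56 RPM against 16.19, 17.21 and 15.62 RPM (0.35 ± 0.06, adjusted p = 0.00289). Zfp110, whose protein binds the p75 neurotrophin receptor, was at 27.78, 28.42 and 28.54 RPM against 35.18, 33.48 and 32.9 RPM (0.26 ± 0.04, adjusted p = 0.00321). In all 3 of these genes every Setdb1 hairpin library was above every control library.

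2 members without a KRAB pattern kept a lower level. Zfp286 was at 6.695, 6.168 and 5.717 RPM in the control and 4.293, 3.851 and 4.844 RPM in the Setdb1 hairpin libraries, and fell by 0.52 on the log2 scale (SE 0.09, adjusted p = 0.00421). Zfp36, or tristetraprolin, a CCCH protein that promotes decay of AU-rich messenger RNAs, was at 81.38, 75.11 and 71.5 RPM against 55.74, 53.64 and 64.21 RPM. Neither gene's groups overlapped, and Zfp36 fell by 0.40 (SE 0.07, adjusted p = 0.00477). With 5-aza the difference of Zfp36 was -0.11 ± 0.07 (adjusted p = 0.304), and the difference between these contrasts did not pass its own test (0.29 ± 0.10, adjusted p = 0.794). Zfp941, Zfp961 and Zfp651 also passed the test, with 0.47 (adjusted p = 0.0199), 0.44 (0.0136) and -0.21 (0.027). Zfp941 lost the call without control hairpin replicate A (0.0795) or B (0.0723) or Setdb1 hairpin replicate A (0.062). Zfp961 lost it without control hairpin replicate 1 (0.0607) or Setdb1 hairpin replicate 1 (0.0671). Zfp651 (Zbtb47) lost it without control hairpin replicate 1 (0.098) or A (0.08) or Setdb1 hairpin replicate 1 (0.114) or A (0.0517).

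KRAB members were called in 23 of 156 cases, 22 of them rises, and members without the pattern in 9 of 140, 6 of them rises. These are 14.7% and 6.43%, against the 12.4% of all genes. The median log2 difference was 0.079 in KRAB members and 0.042 in the others. The KRAB count was 14 after median centring and 15 after either quantile normalization or GC correction. Matching counts for members without the pattern and for all genes are not given, so these describe the KRAB members alone. KRAB members were of lower level, and their median SE was 0.080 against 0.061.

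**Figure D4:**
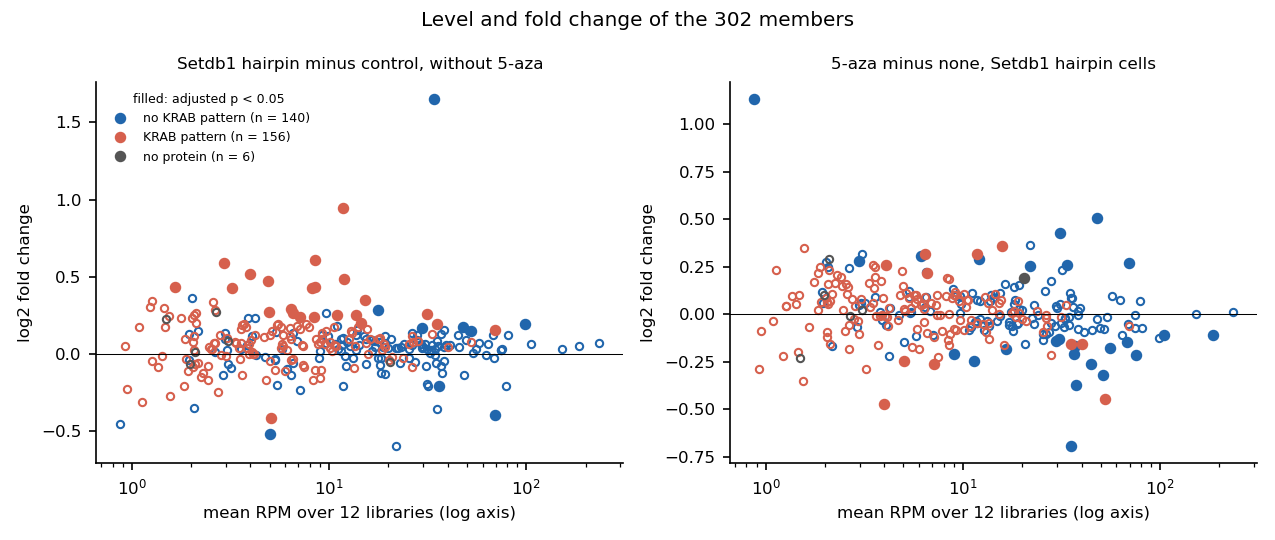
Log2 difference in RPM, Setdb1 hairpin against control hairpin without 5-aza, (left) and 5-aza against none in Setdb1 hairpin cells (right), against the mean level over the 12 libraries (RPM, log axis) for the 302 members, with KRAB members and others in different colours and filled points for adjusted p under 0.05. On the left, Zfp37 at 1.65 and Zfp760 at 0.95 lie above the other members.

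In 5-aza-treated cells the same hairpin comparison gave 32 rises and 7 falls, or 12.9% of members, against 19.9% of all genes tested (14.5% rose and 5.37% fell). The median log2 difference was 0.042 in members and 0.047 in all genes, and the groups did not overlap in 31.8% of members and 34.7% of all genes. Zfp37 and Zfp760 were called and at least 2-fold changed, as were 1.32% of all genes. The split was 16 to 13 after median centring, 17 to 15 after quantile normalization and 18 to 10 after GC correction. A fit on these 6 libraries alone called 20. With 1 library left out the count lay between 19 and 50, and it was 20 when the treated control replicate B was left out, 19 for the treated Setdb1 replicate 1 and 20 for the treated Setdb1 replicate B. For these scalings and smaller fits the share of all genes called is not given, so the counts describe the members alone. Called in the same direction with and without 5-aza were 21 members, which is 6.95% of members against 8.67% of all genes. Of these 18 rose, beside 6.72% of all genes, and 3 fell, beside 1.96%. These are 65.6% of the 32 members called without 5-aza and 53.8% of the 39 called with it. Both comparisons use separate libraries, although the treated and untreated cultures carry the same names.

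The block on chromosome 17 was also higher in 5-aza-treated Setdb1 hairpin cells. Zfp760 was at 9.515, 8.289 and 7.744 RPM in the control hairpin + 5-aza and 17.8, 16.34 and 18.12 RPM in the Setdb1 hairpin + 5-aza libraries, a 2.05-fold rise (1.04 ± 0.08, adjusted p = 9.71e-06). Zfp229 rose by 0.43 ± 0.07 (adjusted p = 0.00215), Zfp820 by 0.39 ± 0.07 (0.00233) and 3110052M02Rik by 0.64 ± 0.11 (0.00208). Zfp40 was at 5.887, 6.416 and 6.609 RPM against 4.468, 4.201 and 4.002 RPM and fell by 0.58 (SE 0.07, adjusted p = 0.00021). The groups did not overlap for any gene of the block or for Zfp40. Zfp958 rose by 0.61 ± 0.08 (adjusted p = 0.000339) and Zfp941 by 0.54 (0.00716), and Zfp286 fell by 0.55 (0.00215) and Zfp651 by 0.29 (0.00387).

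In this comparison Zfp560 rose and Zfp521 fell. Zfp560, in the chromosome 9 cluster, was at 6.24, 4.974 and 5.697 RPM with the control hairpin and 8.4, 8.022 and 8.222 RPM with the Setdb1 hairpin (0.55 ± 0.08, adjusted p = 0.000875). Zfp521, a gene with 28 C2H2 fingers that opposes adipocyte commitment in mesenchymal cells, was at 30.62, 39.68 and 32.24 RPM against 19.04, 28.49 and 21.84 RPM. It fell by 0.58 (SE 0.13, adjusted p = 0.00939) with no overlap, although replicate A was the highest of its group in both, and the call ended in a fit on only these 2 groups (-0.58, adjusted p = 0.0537). Zfp598, a ubiquitin ligase that marks collided ribosomes, rose by 0.23 (adjusted p = 0.00196), and Zfp828 (Champ1), a kinetochore protein, by 0.21 (0.00223). Zfp295 (Zbtb21) rose by 0.23 (adjusted p = 0.0068). Other calls were less firm. Zfp940 (0.44, adjusted p = 0.0112) lost the call without control hairpin + 5-aza replicate B (0.0523), and Zfp933 (-0.30, 0.0108) lost it without Setdb1 hairpin + 5-aza replicate 1 (0.0506). Zfp503 (-0.27, adjusted p = 0.0165) lost the call without treated control hairpin replicate A (0.0573) or treated Setdb1 hairpin replicate 1 (0.0742) or B (0.073). Zfp101 (0.42, 0.021) lost it without treated control hairpin replicate A (0.0798) or B (0.0605), or treated Setdb1 hairpin replicate 1 (0.0529) or B (0.0705).

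The effect of 5-aza was examined within each hairpin. In control hairpin cells 10 members rose and 8 fell, or 5.96% of members, against 18.8% of all genes tested (1769 rose and 702 fell). In Setdb1 hairpin cells 16 rose and 22 fell, or 12.6%, against 28.9% (2805 rose and 987 fell). Treated and untreated libraries did not overlap in 28.5% and 30.5% of members, against 37.6% and 43.4% of all genes. No member with the control hairpin and 1 with the Setdb1 hairpin was called and at least 2-fold changed, beside 1.01% and 1.39% of all genes. That member, Zfp750, reached 1 RPM in 4 of the 12 libraries, all of them 5-aza-treated, so its count supports nothing. Among the members the median log2 difference was 0.033 and 0.016, and among all genes 0.042 and 0.058. The counts moved with the model as well as with scaling. With cultures of the same name paired they were 31 (29.7% of all genes) with the control and 49 (40.2%) with the Setdb1 hairpin. With the pairing and GC correction together they were 38 (28.5%) and 61 (36.5%). In control hairpin cells GC correction alone gave 30 (19.1%) and a fit on only the 2 groups 11 (15.5%). The split between rises and falls moved with scaling. In control hairpin cells it was 6 to 21 after median centring, 2 to 17 after quantile normalization and 7 to 23 after GC correction, and in Setdb1 hairpin cells 11 to 38, 11 to 45 and 10 to 39. Leaving out control hairpin replicate A or B reduced the 18 calls to 4, leaving out the treated replicate 1 reduced them to 6 and the treated replicate B to 8. The 38 calls became 16 when Setdb1 hairpin replicate A was left out, 24 when its treated replicate 1 was and 15 when its treated replicate B was. For these splits and left-out libraries the share of all genes called is not given. Called in the same direction with both hairpins were 12 members, 3.97% against 13.1% of all genes, of which 5 rose (9.78% of all genes) and 7 fell (3.31%).

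Zfp52 rose with 5-aza under either hairpin. This KRAB gene of the chromosome 17 cluster, 153 kb before the start of Zfp760, was at 14.05, 12.99 and 13.4 RPM in the control and 19.86, 18.39 and 17.46 RPM in the control + 5-aza libraries (0.46 ± 0.07, adjusted p = 0.00152). In Setdb1 hairpin cells it went from 14.1, 12.69 and 13.77 RPM to 18.77, 15.72 and 17.7 RPM (0.36 ± 0.07, adjusted p = 0.00458). Treated and untreated libraries did not overlap, and the Setdb1 hairpin itself left no called difference in Zfp52 (0.00 ± 0.07, adjusted p = 0.984). Zfp219, whose protein works with Sox9 in cartilage, was at 32.52, 27.48 and 26.95 RPM in the control and 37.91, 37.48 and 35.17 RPM in the control + 5-aza libraries (0.35 ± 0.07, adjusted p = 0.0051). In Setdb1 hairpin cells it rose by 0.43 ± 0.07 (adjusted p = 0.00144). The calls of both genes held with any 1 library left out.

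Zfp9, Zfp521, Zfp568 and Zfp940 were among the members that fell with 5-aza. Zfp9 was at 56.79, 64.66 and 58.7 RPM in the Setdb1 and 42.34, 46.59 and 43.44 RPM in the Setdb1 + 5-aza libraries, and fell by 0.44 (SE 0.07, adjusted p = 0.000968). Zfp521 fell by 0.69 in Setdb1 hairpin cells (SE 0.13, adjusted p = 0.00292), from 34.3, 39.5 and 36.91 RPM to 19.04, 28.49 and 21.84 RPM. Neither gene's groups overlapped. In control hairpin cells Zfp521 fell by 0.47 (adjusted p = 0.0243), with the call lost without any library but control hairpin + 5-aza replicate A (highest 0.0828, without control hairpin + 5-aza replicate B), and Zfp9 fell by 0.23 (0.0326), with the call lost without control hairpin replicate A (0.0966) or B (0.135) or control hairpin + 5-aza replicate 1 (0.109) or B (0.0732). Zfp568, a KRAB protein that silences a placental Igf2 transcript, was at 42.51, 41.57 and 41.83 RPM in the control and 38.43, 34.56 and 33.75 RPM in the control + 5-aza libraries and fell by 0.24 (SE 0.05, adjusted p = 0.00743). It lies in the cluster of 14 members at 29.77 Mb of chromosome 7, where 5-aza lowered 3 members with the control and 4 with the Setdb1 hairpin and raised none. These falls are 21.4% and 28.6% of its members. Falls alone were 702 and 987 of all 13134 genes tested, a smaller share than in the cluster. Since no member of the cluster rose, these percentages are also its calls in either direction, beside 18.8% and 28.9% of all genes. With the control hairpin the fall of Zfp568 held with any 1 library left out, while Zfp146 (-0.14, 0.0196) lost its call without control hairpin replicate A (0.0646) or B (0.0663) or the treated replicate 1 (0.07). In Setdb1 hairpin cells Zfp568 kept its call only without the treated replicate 1 (highest 0.104, without the treated replicate A), and Zfp260 lost its call without Setdb1 hairpin replicate A (0.0659) or the treated replicate 1 (0.0506) or B (0.0701). Zfp940 of this cluster, higher with the Setdb1 hairpin, was lower with 5-aza: it fell by 0.47 in Setdb1 hairpin cells (SE 0.10, adjusted p = 0.00623), from 5.39, 5.808 and 5.014 RPM to 3.624, 4.401 and 3.703 RPM. In control hairpin cells Zfp940 fell by 0.39 (adjusted p = 0.0197), and that call was lost without control hairpin replicate A (0.0764) or B (0.0663) or control hairpin + 5-aza replicate 1 (0.0552) or B (0.0789).

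**Figure D5:**
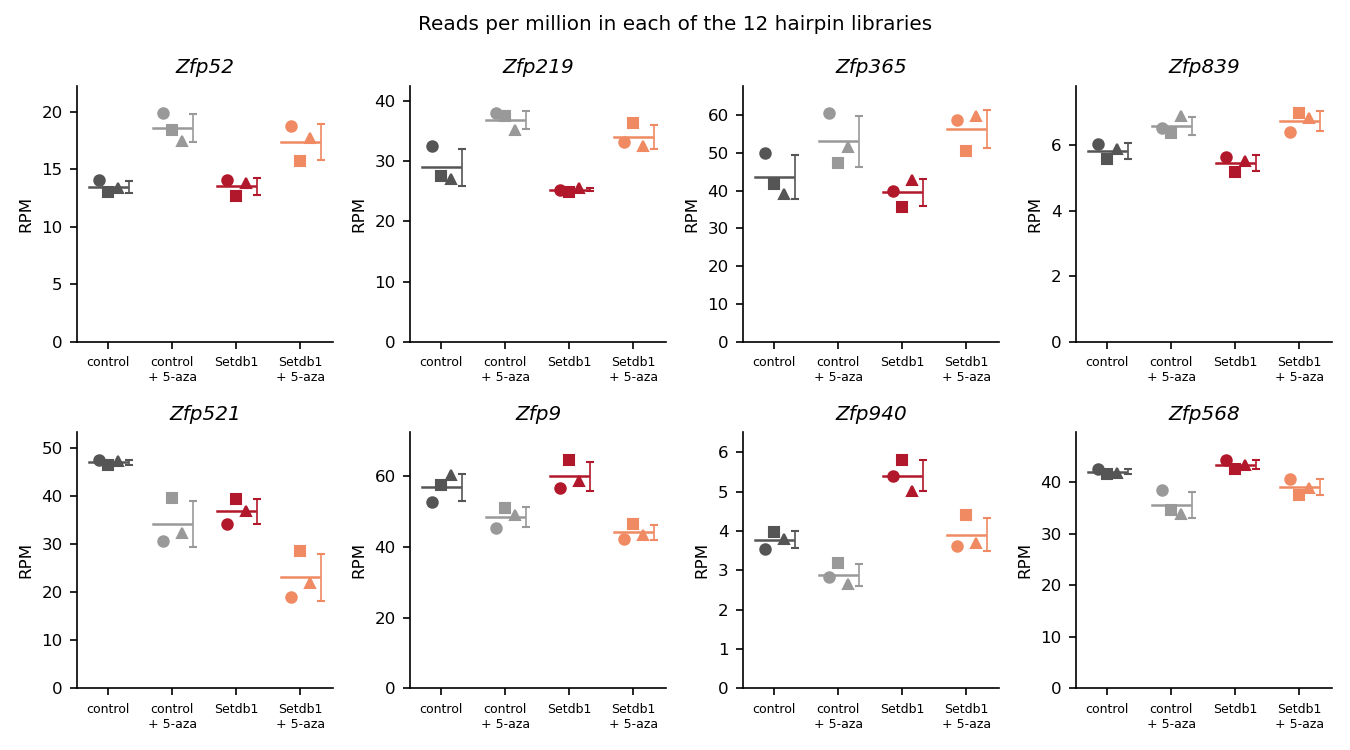
RPM in each of the 12 hairpin libraries for 8 members named for 5-aza, with circles for replicate 1, squares for A and triangles for B, a line at the group mean and a bar of 1 SD (n = 3). Zfp52 is higher and Zfp940 lower in the 5-aza libraries of each hairpin, with no overlap between treated and untreated libraries.

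Further rises in Setdb1 hairpin cells were of Zfp365, with 0.51 ± 0.11 (adjusted p = 0.00656), Zfp839 with 0.31 (0.00584) and Zfp672 with 0.29 (0.00241). Zfp37 also rose, by 0.26 ± 0.06 (adjusted p = 0.00641), although in control hairpin cells its difference with 5-aza was 0.04 ± 0.06 (0.666). Zfp750, a regulator of keratinocyte differentiation, was at 0.429, 0.358 and 0.765 RPM in the Setdb1 and 0.959, 1.14 and 1.135 RPM in the Setdb1 + 5-aza libraries. It passed the level threshold through 4 treated libraries, so these values are a description with no test. The cluster of 12 members at 67.04 Mb of chromosome 13 had positive differences in 11 members with the control and in all 12 with the Setdb1 hairpin, with medians of 0.115 and 0.063 (all genes: 0.042 and 0.058) and a single call, Zfp595 in control hairpin cells (0.30, adjusted p = 0.0236). That call was lost without control hairpin replicate A (0.0967) or B (0.0832) or control hairpin + 5-aza replicate 1 (0.0577) or B (0.0846).

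No member passed the test of whether 5-aza acted differently with the Setdb1 and the control hairpin (limma interaction), against 0.388% of all genes, and 11 members had an unadjusted p under 0.05, which is 3.64% of members against 5.34% of all genes. A second tool, limma voom on the reads recovered from the table, also called no member. The lowest adjusted p was 0.0846, for Zfp605. The median interaction was -0.020 in members and 0.020 in all genes.

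Among 9 KRAB members listed for a studied role, the imprinting factors Zfp57 and Zfp445 were not called in any of the 5 tests. Zfp57 was at 26.67, 30.82 and 29 RPM in the control and 32.79, 28.41 and 30.52 RPM in the Setdb1 hairpin libraries, and these groups overlapped. Zfp445 was at 25.97, 25.73 and 25.11 RPM against 27.33, 27.4 and 25.82 RPM. Zfp932, which silences endogenous retroviruses, rose with 5-aza in control hairpin cells (0.36, adjusted p = 0.0165), with the call lost without control hairpin replicate A (0.06) or B (0.0652) or control hairpin + 5-aza replicate 1 (0.0613). Zfp708, Zfp429, Zfp30 and Zfp69 were not called in any test, and 95.6% of the words of Zfp708 occur in other genes. With the Setdb1 hairpin Zfp30 differed by 0.19 (adjusted p = 0.085) without and 0.13 (0.175) with 5-aza, and Zfp69 by -0.23 (0.372) and -0.38 (0.0987). Zfp819 was listed below 1 RPM and is not a member.

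Of the 16 members listed for a role without a KRAB domain, 7 were called in some test and 9 in none. Zfp143 and Zfp281, promoter-binding transcription factors, Zfp410, which activates Chd4, Zfp451, a SUMO ligase, Zfp423, an adipocyte regulator, and Zfp335, Zfp703, Zfp91 and Zfp106 were not called in any test. For Zfp451 the groups did not overlap in any of the 4 comparisons, with log2 differences of 0.09 and 0.08 for the hairpin and -0.07 and -0.07 for 5-aza. Of the 7 that were called, Zfp36 and Zfp521 are given above. Zfp217, an oncogenic transcription factor, fell by 0.19 with the Setdb1 hairpin in 5-aza-treated cells (adjusted p = 0.0285) and rose by 0.16 with 5-aza in control hairpin cells (0.0494). The first call held only without treated Setdb1 hairpin replicate A (highest 0.119, without treated Setdb1 hairpin replicate B), and the second was lost without any 1 of the 6 libraries (highest 0.162, without control hairpin replicate A). Zfp462, a large protein with 33 C2H2 fingers, rose by 0.20 (adjusted p = 0.0457) with the Setdb1 hairpin and by 0.25 (0.0118) with 5-aza present. The first of these calls held only without control hairpin replicate 1 (highest 0.16, without control hairpin replicate A), and the second was lost without treated control replicate B (0.0548). Zfp207, Zfp148 and Zfp384 fell with 5-aza in Setdb1 hairpin cells by 0.11, 0.11 and 0.13 (adjusted p = 0.0363, 0.0288 and 0.0279). Leaving out Setdb1 hairpin replicate A ended the call of all 3 (0.0609, 0.123 and 0.0991), as did leaving out treated replicate B (0.103, 0.0697 and 0.104), and in all Zfp207 and Zfp148 lost it without 5 and Zfp384 without 4 of the 6 libraries.

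The genes through which KRAB proteins act were counted from a list of 24 symbols with 25 rows, all tested. This list was chosen with earlier results of these data known, and Atf7ip counts as 2 rows. Its counts and median are therefore a description. Without 5-aza 11 rows rose and Setdb1 fell, and with 5-aza 13 rose and Setdb1 fell, beside rises in 9.01% and 14.5% of all genes. Trim28, the KRAB co-repressor, rose by 0.19 ± 0.04 (adjusted p = 0.0144), from a mean of 205.5 ± 3.64 (SD, n = 3) to 233.8 ± 11.5 RPM. Atf7ip, the partner that stabilises Setdb1, has 2 intervals, which rose by 1.02 ± 0.06 (adjusted p = 5.2e-07) and 1.29 ± 0.07 (6.22e-07). Cbx1, a heterochromatin protein that reads H3K9 methylation, rose by 0.17 ± 0.04 (adjusted p = 0.0188). The median log2 difference over the list was 0.174, against 0.031 over all genes. With 5-aza against none, 1 row rose and 3 fell with either hairpin, so 4 of 25 were called beside 18.8% of all genes with the control and 28.9% with the Setdb1 hairpin. With the control hairpin 8 rows were called after median centring and 2 by voom, and with the Setdb1 hairpin 8 after median centring and 9 after GC correction.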

How the data were processed

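Poly(A) RNA-seq of 13 MEF libraries was deposited as 1 table of log2 RPM values per gene, with Ensembl IDs and mm10 positions. The submitters' processing notes name mm10 and CASAVA 1.4. The aligner, the counting rule and the use of strand for this table are not given in the sources used here. In the deposited log2 values the low steps matched whole reads (at least 99.96% of values within 0.1 read), and 0 reads are listed at a floor of 0.9 read. The size of 1 read in each column gives the depth of that library, which sets the counting precision.

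Members and lists were chosen with earlier results of these data known. The 13134 genes that reached 1 RPM in 3 or more hairpin libraries were fitted on the log2 values as deposited with limma 3.58.1 in R 4.3.3 (group means over 4 groups of 3 libraries, moderated with a trend), with Benjamini-Hochberg adjustment over all of them and a threshold of 0.05. Named members were the up to 8 largest called rises and falls of each comparison whose groups did not overlap, with members of known role and the sequenced block added. Clusters joined Zfp rows with starts within 1 Mb, with at least 4 members. KRAB patterns, fingers, shared 31-base words and exon overlap came from GENCODE M21, which held 298 of the members. Promoters came from RefSeq. The script was tested on simulated data. Alternatives were other scalings, filters, a pseudocount of 1, a replicate block, fewer libraries and limma voom, the last chosen after the data were seen. Cultures of the same name deviated together in Setdb1 hairpin cells (correlations 0.4719, 0.6342 and 0.4127) but not throughout in control hairpin cells (0.5863, 0.1487 and 0.0999). The library with no named hairpin was left out of all tests.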

Additional observations from a re-analysis of the deposited data

Results flagged for a closer look

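In 3 members every 5-aza library was above every untreated library with the control hairpin and below every untreated library with the Setdb1 hairpin. They were picked for this pattern, and its share among all genes was not counted. Treated and untreated libraries did not overlap in 37.6% of all genes with the control and 43.4% with the Setdb1 hairpin. The interaction test, which sets the 5-aza responses with each hairpin against each other, passed the adjusted threshold for none of the 3 members. Zfp605, a KRAB gene on chromosome 5, was at 6.44, 6.681 and 6.947 RPM in the control, 7.152, 7.708 and 7.242 in the control + 5-aza, 7.632, 8.038 and 8.039 in the Setdb1 and 6.654, 6.762 and 6.351 RPM in the Setdb1 + 5-aza libraries. Its interaction was -0.40 ± 0.08 on the log2 scale (limma adjusted p = 0.0846). Zfp108, a KRAB gene in the cluster at 24.08 Mb of chromosome 7, had an interaction of -0.55 (adjusted p = 0.709) at 0.997 to 1.45 RPM. Zfp939 had -0.41 (adjusted p = 0.794) at 1.19 to 1.74 RPM. In Zfp187 it was the hairpin whose direction differed: the Setdb1 libraries, at 34.33 to 35.84 RPM, were above the control libraries, at 33.72 to 34.32 RPM, and the Setdb1 + 5-aza libraries, at 32.6 to 34.59 RPM, were below the control + 5-aza libraries, at 34.64 to 36.41 RPM. Its interaction was -0.10 and did not pass either (adjusted p = 0.794).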

How the results depend on the processing

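No count-model tool was run, since the deposited values are log2 RPM, and the 2 comparisons of tools that needed one were not run. With 1 library left out, the number of members called was 15 to 22 for the Setdb1 hairpin without 5-aza, 19 to 50 with 5-aza, 4 to 24 for 5-aza in control and 15 to 35 in Setdb1 hairpin cells, and 0 for the interaction. A fit on only the 6 libraries compared called 20 members for the Setdb1 hairpin with 5-aza and 11 for 5-aza in control hairpin cells. For 5-aza in control hairpin cells, GC correction called 30 members, pairing cultures of the same name 31 and both together 38 (18 without). In Setdb1 hairpin cells the pairing with GC correction called 61 (38 without). The block in which cultures of the same name are paired called 49 members for 5-aza in Setdb1 hairpin cells, with all 38 calls among them. Replicate names shared between the hairpins do not mark paired cultures (correlations -0.4703 to 0.6858). With these names as a block 39 and 48 members were called for the Setdb1 hairpin without and with 5-aza, against 32 and 39. KRAB members called for the Setdb1 hairpin without 5-aza were 14 after median centring, 15 after quantile normalization and 15 after GC correction, against 23. Co-repressor rows called for 5-aza were 8 after median centring and 2 with voom in control hairpin cells and 8 after median centring and 9 after GC correction in Setdb1 hairpin cells, against 4 in each. The cause of these shifts was not tested. Counts in this paragraph stand without the share of all genes called under the same setting, so they describe the members or listed rows alone. No called change of a named member altered its sign in these alternatives. Of 1400 such alternative values, 1136 stayed on the same side of the threshold and 264 lost a call. At 1 RPM, 42 to 59 reads stand behind a value, and small changes of low members were not detectable at this depth.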

Other observations

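In the 5-aza-treated library with no named hairpin, the shallowest, Zfp697 was at 7.85 RPM, against 15.8 to 32.8 RPM in the 6 control hairpin libraries with and without 5-aza.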
